A study of Mus musculus with 30 samples.

Results

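The comparison described here is that of the H3K4me1 peaks of EBF-/- pre-pro-B cells with those of RAG1-/- pro-B cells. Its members are all intervals of the deposited H3K4me1 peak lists of these cells, 7544 in EBF-/- cells and 23054 in RAG1-/- cells. Together they make 30598 of the 323966 intervals in the 24 peak lists of the series. No peak was chosen by its score or by another measured value. EBF-/- cells lack the transcription factor EBF1 and were grown over a layer of S17 stroma, with FLT3 ligand, SCF and IL-7 added. RAG1-/- cells lack the recombinase RAG1, were enriched by B220 from femoral bone marrow with magnetic beads and were then kept for 10 d in medium to which SCF and IL-7 were added, with no stroma named. Both were mouse cells on a C57BL/6 background. The immunoprecipitation was done once in each kind of cell, so nothing in the peak lists measures the spread between replicates, and genotype and culture cannot be told apart. RNA of the same kinds of cells was measured on two-colour arrays, with 2 samples each. The fit of the RNA also held 2 array samples of E2A-/- pre-pro-B cells, which lack the transcription factor E2A. They served in the normalization and the shared estimate of spread. H3K4me1 lists of E2A-/- cells and of A12 cells, a T cell line, are also set beside the peaks. For those lists both kinds of cell carried an E2A fusion activated by 1 uM tamoxifen.

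H3K4me1 is the single methylation of lysine 4 on histone H3. It marks enhancers, the stretches of DNA from which transcription factors act on genes at a distance, and it appears at many of them before the gene is active. Further methylation to H3K4me2 and acetylation of H3 accompany active enhancers and promoters, and H3K4me3 marks promoters. E2A binds E-box sequences, and with EBF1 and FOXO1 it switches on the genes of the B lineage, whereas CTCF binds the anchors of chromatin loops. Pre-pro-B cells without EBF1 stop before commitment to the B lineage, and pro-B cells without RAG1 are committed but cannot rearrange their antigen receptor genes.

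Most H3K4me1 peaks of either kind of cell had no counterpart in the other. Of the EBF-/- peaks, 2800 overlapped a RAG1-/- peak by at least 1 bp, which is 37.1% of that list (exact binomial 95% interval 36.0 to 38.2%, for counting error only). The same 2800 pairs were 12.1% of the longer RAG1-/- list (11.7 to 12.6%). This left 4744 EBF-/- only peaks and 20254 RAG1-/- only peaks. All intervals were 1000 bp wide, so that an overlap means centres less than 1 kb apart, and the centres of a shared pair lay a median of 227 bp apart. With only as many top-scoring RAG1-/- peaks as there were EBF-/- peaks, the shared part was 12.6% of each list. With intervals up to 5 kb apart also counted, it was 46.6% of the EBF-/- and 15.8% of the RAG1-/- list.

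EBF-/- peaks lay nearer to a RAG1-/- peak than the other way round. The nearest RAG1-/- centre was within 10 kb for 55.1% of EBF-/- peaks and within 50 kb for 87.6%, with a median distance of 7.64 kb. From the RAG1-/- peaks the median distance was 45.9 kb, and 52.2% had an EBF-/- centre within 50 kb. The unequal lengths of the lists alone would make these distances unequal. The peak caller left no peaks of 1 list closer than 3500 bp in EBF-/- and 2517 bp in RAG1-/- cells, so each broad region is represented by 1 or a few fixed intervals.

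The deposited scores are the authors' own, and they rank peaks within a list but are not comparable between lists. In EBF-/- cells the shared part fell with the score, over 5 equal groups by rank, from 44.7% in the highest through 40.2%, 36.0% and 34.4% to 30.4% in the lowest. In RAG1-/- cells it was about the same throughout, between 11.7% and 12.7%. Shared and unshared RAG1-/- peaks had the same median score of 32, with scores from 15 to 161 in the whole list. The intervals of the highest and the lowest RAG1-/- group overlapped (11.7 to 13.7% and 10.8 to 12.7%).

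**Figure D1:**
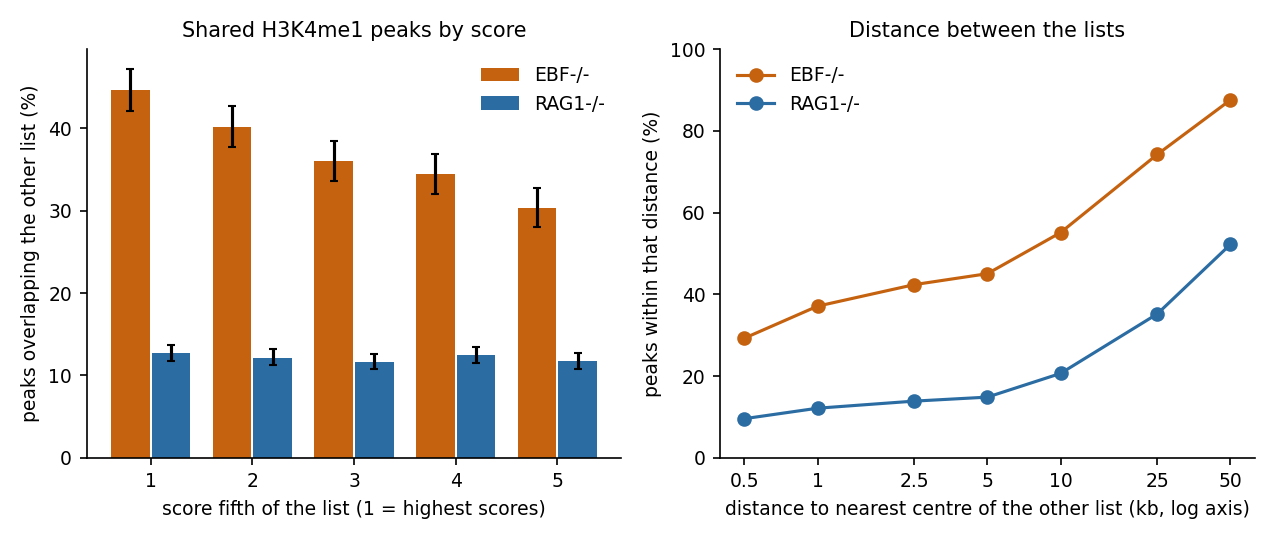
Left, the percentage of H3K4me1 peaks that overlapped the other list, by score group of their own list, from the highest to the lowest of 5 equal groups, with exact binomial 95% intervals for counting error. Right, the percentage of peaks whose nearest centre in the other list lay within a given distance, on a log axis. The EBF-/- bars fall from 44.7% to 30.4%, and the RAG1-/- bars stay between 11.7% and 12.7%.

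The excess of RAG1-/- peaks was much larger on X than on any autosome. On the 19 autosomes there were between 2.69 and 3.49 RAG1-/- peaks for each EBF-/- peak. On the X chromosome there were 8.43, with 430 RAG1-/- peaks against 51 EBF-/- peaks. The X chromosome held 0.676% of the EBF-/- list (0.504 to 0.888%) and 1.87% of the RAG1-/- list (1.69 to 2.05%). The H3K4me2 lists of the same cells did not show a gap of that size, with 2.03% of peaks on X in EBF-/- and 2.27% in RAG1-/- cells. The 3 H3K4me1 lists of E2A-/- cells held 0.815%, 1.03% and 1.08% on X. Without the X and Y chromosomes the shared part of the EBF-/- list was 37.1%, as with them.

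The other marks of the same cells were found more often at shared than at unshared peaks. In EBF-/- cells, H3K4me2 overlapped 80.2% of shared intervals (78.7 to 81.6%) and 64.3% of the EBF-/- only peaks (62.9 to 65.7%). In RAG1-/- cells it overlapped 74.5% of shared intervals (72.8 to 76.1%) and 54.0% of the RAG1-/- only peaks (53.3 to 54.7%). Acetylated H3 overlapped 35.2% of shared and 19.9% of EBF-/- only peaks in EBF-/- cells, and 29.9% of shared and 19.8% of RAG1-/- only peaks in RAG1-/- cells. H3K4me2 was commoner at shared peaks at every level of score, each list being split by rank into 5 equal groups. Among the lowest-scoring peaks, for example, it overlapped 70.3% of shared and 44.2% of EBF-/- only peaks in EBF-/- cells, and 63.4% of shared and 39.8% of RAG1-/- only peaks in RAG1-/- cells.

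The promoter mark H3K4me3 differed more between the lists than the other marks did. It overlapped 4.97% of EBF-/- only peaks and 13.5% of shared intervals in EBF-/- cells, but 19.6% of RAG1-/- only peaks and 27.1% of shared intervals in RAG1-/- cells. The RAG1-/- H3K4me3 list is itself longer, with 13205 peaks against 9064. The EBF-/- H3K4me3 list overlapped 4.97% of EBF-/- only and 13.5% of RAG1-/- only peaks, and the RAG1-/- H3K4me3 list 10.8% and 19.6%. With either H3K4me3 list the share was thus larger at RAG1-/- only peaks. Peaks of H3K4me1 with none of H3K4me2, H3K4me3 and acetylated H3 in the same cells made up 34.0% of EBF-/- only peaks, 17.7% of shared peaks in EBF-/- cells, 23.7% of shared peaks in RAG1-/- cells and 42.6% of RAG1-/- only peaks. The repressive mark H3K27me3 was rare at all of them, at most 1.46% of a class in the same cells.

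**Figure D2:**
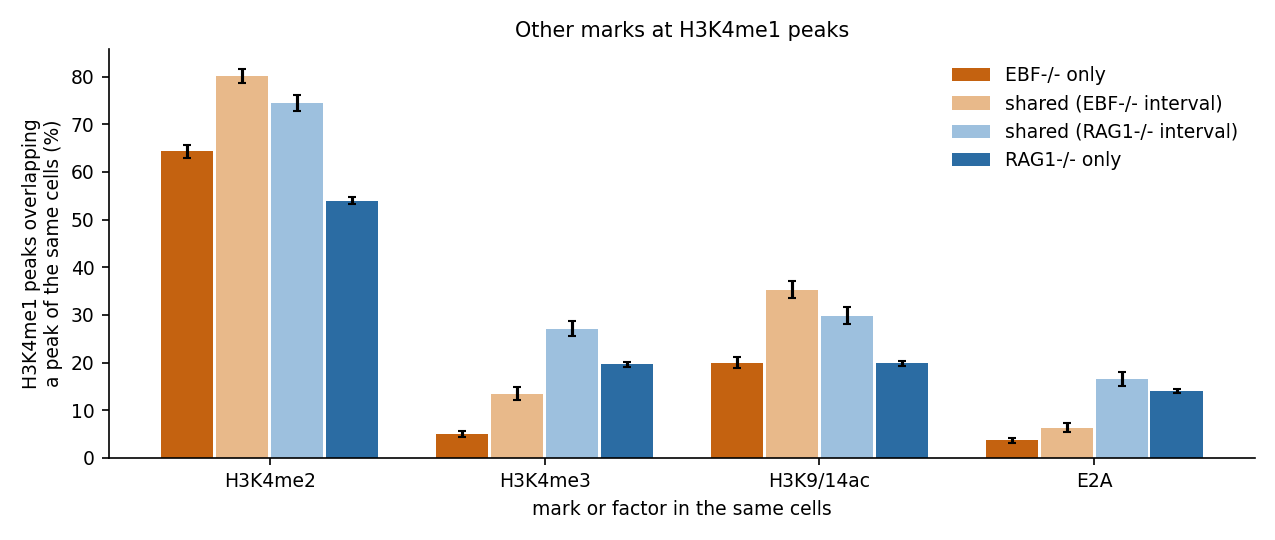
Percentage of H3K4me1 peaks that overlapped a peak of H3K4me2, H3K4me3, H3K9/14ac or E2A in the same cells, for peaks found in EBF-/- cells alone, in both kinds of cell (by the interval of either list) and in RAG1-/- cells alone, with exact binomial 95% intervals for counting error. H3K4me2 stands at 80.2% and 74.5% of shared intervals and at 64.3% and 54.0% of unshared ones.

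A peak of H3K4me1 in 1 kind of cell alone was often accompanied by H3K4me2 in the other. Of the RAG1-/- only peaks, 35.5% overlapped H3K4me2 in EBF-/- cells, and 29.7% overlapped it in both kinds of cell. Of the EBF-/- only peaks, 24.4% overlapped H3K4me2 in RAG1-/- cells and 22.2% in both. H3K4me2 followed the H3K4me1 difference at 42.1% of EBF-/- only peaks, which had it in EBF-/- cells and not in RAG1-/- cells, and at 24.3% of RAG1-/- only peaks, which had it in RAG1-/- cells and not in EBF-/- cells. The H3K4me2 lists were of nearly equal length, 27025 and 26549 peaks, unlike those of H3K4me1.

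H3K4me1 lists of other cells in the series overlapped the EBF-/- peaks more often than the RAG1-/- only peaks. At least 1 of the 3 lists from E2A-/- pre-pro-B cells, which were cultured like the EBF-/- cells and carried a full-length (E47-ER) or truncated (bHLH-ER) E2A fusion activated by tamoxifen, overlapped 62.6% of EBF-/- only peaks, 71.0% of shared EBF-/- intervals and 24.6% of RAG1-/- only peaks. The 2 lists from A12 cells, a T cell line without E2A, came from cells carrying E47-ER or bHLH-ER after 6 h of tamoxifen. At least 1 of these 2 lists overlapped 19.1%, 23.7% and 9.41% of the same classes, in that order. Of the EBF-/- only peaks, 20.3% were in all 3 E2A-/- lists, against 3.56% of the RAG1-/- only peaks. Peaks of the mock immunoprecipitation, which marks places that are enriched without a specific antibody, overlapped 9 EBF-/- only peaks, 15 RAG1-/- only peaks and 10 shared ones, and leaving them out left the shared part at 37.1% and 12.1%.

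Factor binding in RAG1-/- cells was found at RAG1-/- peaks in the order of their H3K4me1 scores. E2A in RAG1-/- cells overlapped 29.4% of the highest of 5 equal score groups of RAG1-/- H3K4me1 peaks, then 18.6%, 12.0% and 6.90%, and 4.73% of the lowest. EBF1 overlapped 3.49% of the highest and 0.521% of the lowest, and FOXO1 overlapped 1.82% and 0.260%. CTCF went the other way, from 6.81% in the highest to 11.1% in the lowest. In EBF-/- cells, where E2A was the factor mapped, it overlapped 9.61% of the highest and 1.66% of the lowest-scoring group of H3K4me1 peaks. The scores of H3K4me1 and the calls of a factor come from separate libraries of the same cells.

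**Figure D3:**
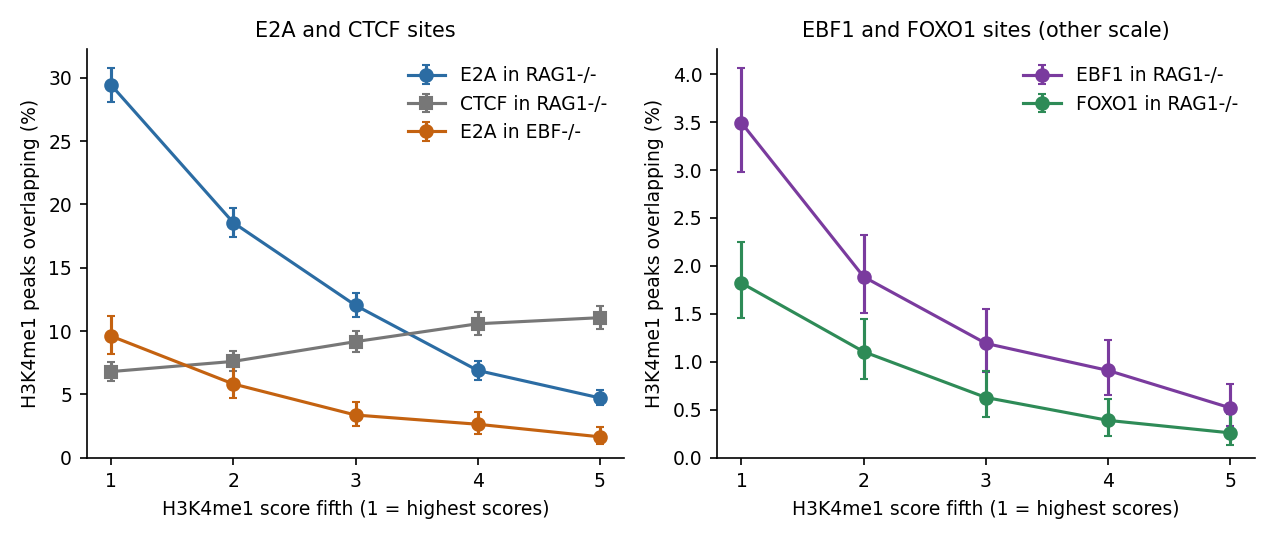
Percentage of H3K4me1 peaks that overlapped a factor peak, by score group of the H3K4me1 list, from the highest to the lowest of 5 equal groups, with exact binomial 95% intervals for counting error; the right panel has its own scale. E2A in RAG1-/- cells falls from 29.4% to 4.73% and EBF1 from 3.49% to 0.521%, while CTCF rises from 6.81% to 11.1%.

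Read from the factor sites, H3K4me1 of RAG1-/- cells lay beside a larger part of them than H3K4me1 of EBF-/- cells, and that list is also the longer one. Of 11846 E2A sites in RAG1-/- cells, 28.1% overlapped a RAG1-/- and 6.02% an EBF-/- H3K4me1 peak. Of 1402 EBF1 sites the values were 26.5% and 5.49%, and of 1575 FOXO1 sites 12.3% and 3.75%. Of 38838 CTCF sites 5.55% and 1.68% overlapped. For the 4531 E2A sites of EBF-/- cells the values were 17.1% and 7.79%, so that these sites too lay more often in a peak of the longer RAG1-/- list. Counted per H3K4me1 peak the order turned, as 3.65% of EBF-/- only and 2.88% of RAG1-/- only peaks overlapped E2A of EBF-/- cells. Within 5 kb of the site centre there was a RAG1-/- H3K4me1 centre for 50.2% of the E2A sites of RAG1-/- cells, 47.3% of those of EBF-/- cells, 45.2% of EBF1 sites and 23.7% of CTCF sites.

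EBF1, which is missing from EBF-/- cells, bound 334 of the RAG1-/- only peaks (1.65%, 1.48 to 1.83%), 30 of the EBF-/- only peaks (0.632%, 0.427 to 0.902%) and 35 of the shared RAG1-/- intervals (1.25%, 0.872 to 1.73%). Read by their EBF-/- intervals, 44 of the shared pairs overlapped EBF1 (1.57%, 1.14 to 2.10%), close to the value for RAG1-/- only peaks. E2A of RAG1-/- cells bound 14.0% of RAG1-/- only peaks, 16.5% of shared RAG1-/- intervals and 4.57% of EBF-/- only peaks. The RAG1-/- only peaks with EBF1 carried H3K4me2 in RAG1-/- cells in 71.6% of cases (66.4 to 76.3%) and in EBF-/- cells in 18.9% (14.8 to 23.5%). For the RAG1-/- only peaks with E2A these values were 65.3% and 31.0%, and for all RAG1-/- only peaks 54.0% and 35.5%. H3K4me2 in EBF-/- cells was thus less frequent where EBF1 bound in RAG1-/- cells than over all RAG1-/- only peaks, beyond counting error.

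The highest-scoring peaks lay at varied genes, and coordinates are those of build mm8. A score of 60 was the highest among EBF-/- only peaks, and 2 peaks had it. One, chr1:87423590-87424589 near Sp110, an interferon-responsive nuclear gene, also overlapped a mock peak, and the other, chr2:29445062-29446061, had no probe gene within 50 kb. Others near the top were chr7:142189578-142190577 (score 58) 3.89 kb from a probe of Ctsd, which encodes the lysosomal protease cathepsin D, and chr11:95564948-95565947 (score 58) 1.47 kb from Zfp652, a zinc finger gene. The 12 top-scoring EBF-/- only peaks included 9 with H3K4me2 in EBF-/- cells. Among RAG1-/- only peaks the highest score, 161, was at chr3:142556489-142557488 beside Gbp2b, which encodes a guanylate-binding protein induced by interferon. The next were chr16:19091586-19092585 (score 156) near 2010309G21Rik and chr1:90084199-90085198 (score 152) near Hjurp, which encodes a chaperone of the centromeric histone. Ranks 4 and 5 fell to peaks by the light chain gene Iglv1 (chr16:18965394-18966393, score 148) and by Mid1 on the X chromosome (chrX:165316733-165317732, score 146). Rank 11 fell to chr15:9494045-9495044 (score 132), 37.0 kb upstream of the probe of Il7r, the receptor for IL-7 on which both cultures depend. The 12 leading shared pairs included ones by Emp3, a membrane protein gene, Mllt6, a chromatin factor gene, and Iqgap2, which encodes a scaffold protein. At Mllt6 the EBF-/- interval was chr11:97500362-97501361 (score 60) and the RAG1-/- interval chr11:97500413-97501412 (score 97), 0.593 and 0.542 kb from a probe, and both overlapped E2A in both kinds of cell.

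To set the peaks beside genes, each peak centre within 50 kb of an array probe was assigned to the probe's gene, and a peak could count for several genes. Of 20250 genes with a position, 8427 had peaks of both lists, 6597 of the RAG1-/- list alone, 613 of the EBF-/- list alone and 4613 of neither. A RAG1-/- peak was near 74.2% of genes and an EBF-/- peak near 44.6%. With RAG1-/- peaks limited to the number of EBF-/- peaks, the RAG1-/- share was 39.3%. Agilent probes lie mostly towards the 3' end of a gene, so a window around them does not always hold the promoter.

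RNA was compared over the 12468 genes tested in limma, with all p-values Benjamini-Hochberg adjusted at a threshold of 0.05. Of these, 2671 (21.4%) had more RNA in RAG1-/- cells and 2854 (22.9%) had less, together 44.3%, and the median change over all genes was 0.04 on the log2 scale. Without EBF-/- replicate 1 the counts were 1063 and 1239, and without replicate 2 they were 1154 and 1339. With 1 sample left in a group, that sample was assumed to vary like those of the other groups. The labels do not say that the 2 samples of a group came from separate animals or cultures, so p-values may reflect technical spread. In these bulk samples, fewer cells of a type and less RNA per cell cannot be told apart. The targeted gene Ebf1 had log2 signals of 10.86 and 10.90 in EBF-/- samples against 12.56 and 12.39, and Rag1 had 9.79 and 9.58 against 10.54 and 11.12 in RAG1-/- samples. The sources used here do not place these probes relative to the deleted parts, so their signals check no label.

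The presence of H3K4me1 near a gene went with small differences in how its RNA changed. Of the 4580 tested genes with RAG1-/- peaks alone, 1100 (24.02%) were higher and 959 (20.9%) lower in RAG1-/- cells, with a median change of 0.09. Of the genes with peaks of both lists, 19.6% were higher and 25.5% lower (median -0.02), and of those with EBF-/- peaks alone 15.4% and 24.4% (median -0.04). Genes without a peak in either list had 22.7% higher and 15.7% lower (median 0.24). Within 50 kb, genes with RAG1-/- peaks alone thus had the largest share of higher genes among these 4 classes, and genes with no peak the most positive median. The order of the shares depended on the window. Genes with RAG1-/- peaks alone were higher in 22.0% of cases at 20 kb and 26.7% at 100 kb, and genes with no peak in 23.4% and 19.7%. All these shares stand beside the 21.4% higher and 22.9% lower over all genes tested.

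The number of RAG1-/- only peaks near a gene did not go with higher RNA in RAG1-/- cells. With 1 such peak, 23.3% of tested genes were higher and 21.3% lower, and with 4 or more, 19.6% were higher and 26.1% lower. For EBF-/- only peaks the part of genes that were higher went from 23.0% without such a peak to 19.3% with 1, 17.1% with 2 and 16.1% with 3. Of the 31 tested genes with 4 or more EBF-/- only peaks, 3 were higher and 17 lower in RAG1-/- cells, with a median change of -0.73. Genes near RAG1-/- only peaks that overlapped EBF1 were higher in 100 of 410 cases (24.4%) and lower in 91 (22.2%), and those near peaks that overlapped FOXO1 in 54 of 204 (26.5%) and 42 (20.6%). Genes near RAG1-/- only peaks with H3K27me3 were higher in 31 of 209 (14.8%) and lower in 64 (30.6%). The values for EBF1 lay near the 21.4% higher and 22.9% lower of all genes tested.

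The genes that drive the B lineage had more H3K4me1 in RAG1-/- cells. The 18 B-lineage transcription factor genes had 53 RAG1-/- peaks within 50 kb and 12 EBF-/- peaks, of which 6 were shared, and 15 of the 18 genes had more RAG1-/- peaks. All genes together had 41254 RAG1-/- and 13818 EBF-/- peaks counted in this way, and 12647 of 20250 genes had more RAG1-/- peaks. With lists of equal size the 18 genes had 27 RAG1-/- against 12 EBF-/- peaks, beside 12229 against 13818 over all genes. In RNA, 15 of the 18 were higher in RAG1-/- cells and none lower, with a median change of 1.91 on the log2 scale, beside 21.4% of all genes tested. Without EBF-/- replicate 1 or 2, 7 and 9 of them were called higher, and the change was positive for 15 of the 18 in both cases, as with all samples.

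Lef1, a partner of B cell factors at pro-B genes, had 8 RAG1-/- peaks and 1 EBF-/- peak near its probes. Its log2 signal was 5.39 and 5.37 in EBF-/- and 14.89 and 15.11 in RAG1-/- samples. Only 1 EBF-/- sample was well above background, and the groups were far apart (log2 change 9.69, SE 1.52, adjusted p = 0.00899 in limma). Foxo1 had 2 RAG1-/- peaks and a single EBF-/- one, shared, with signals of 8.41 and 8.39 against 13.95 and 13.98 (log2 change 5.58, adjusted p = 0.0017). The unshared Foxo1 peak, chr3:52410369-52411368 (score 65), lay 23.4 kb upstream of its probe. Ikzf3, which encodes the Ikaros family member Aiolos, had 3 RAG1-/- peaks and no EBF-/- peak, among them chr11:98331350-98332349 (score 72), 1.94 kb upstream of the probe and overlapping E2A.

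Some genes of the list did not follow this order. Pax5, which fixes commitment to the B lineage, had no RAG1-/- peak within 50 kb of its probes and 1 EBF-/- only peak, chr4:44585992-44586991 (score 17). Its RNA differed all the same, with log2 signals of 7.03 and 6.54 in EBF-/- and 14.22 and 14.01 in RAG1-/- samples (log2 change 7.36, SE 0.69, adjusted p = 0.00243). Tcf3, which encodes E2A, had 3 peaks in each list and all of them were shared. Its signals were 13.41 and 13.39 against 14.99 and 14.70, and the call (adjusted p = 0.0485) was lost without any 1 of EBF-/- replicate 1, EBF-/- replicate 2 and RAG1-/- replicate 1. At Ebf1 itself, 3 RAG1-/- and 2 EBF-/- peaks lay within 50 kb of the probes, none of them shared. Windows around the probes of Pax5 and Ebf1 may not hold their promoters, as for other genes.

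The genes of the pre-B receptor and its signalling had 31 RAG1-/- and 8 EBF-/- peaks near 15 genes, and 12 of the 15 had more RAG1-/- peaks, beside 41254 and 13818 peaks and 12647 of 20250 genes in all. With lists of equal size they had 11 RAG1-/- and 8 EBF-/- peaks. Of 14 tested, 11 were higher and 1, Bank1, was lower in RAG1-/- cells, against 21.4% and 22.9% of all genes tested. Without EBF-/- replicate 1, 6 were called higher and none lower. Igll1 and Vpreb1 encode the surrogate light chain that pairs with the first heavy chain, and they are neighbours. Both had the same 2 RAG1-/- only peaks within 50 kb and no EBF-/- peak. The stronger, chr16:16808460-16809459 (score 84), lay 26.9 kb upstream of the Vpreb1 probe and overlapped H3K4me1 in the A12 cells. The weaker, chr16:16742328-16743327 (score 15, the lowest in the list), overlapped E2A, CTCF and H3K4me2 of RAG1-/- cells and H3K4me2 of EBF-/- cells.

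Vpreb1 signals were 9.12 and 9.02 in EBF-/- and 18.60 and 18.44 in RAG1-/- samples, and Igll1 signals were 5.24 and 5.41 against 15.95 and 15.76. For both genes the RAG1-/- samples were high and the EBF-/- samples low, with no overlap. The fitted log2 change of Vpreb1 was 9.49 (SE 0.87, adjusted p = 0.0023). Igll1 was well above background in only 1 of the 2 EBF-/- samples, so the size of its change is uncertain (fitted log2 change 10.62, SE 1.93, adjusted p = 0.0135), and its call was lost without EBF-/- replicate 1. Pou2af1, a coactivator of B cell octamer factors, had 2 RAG1-/- only peaks and no EBF-/- peak, and its signals were 5.24 and 5.41 against 17.58 and 16.99. It too was well above background in only 1 EBF-/- sample, and its call (fitted log2 change 12.08, SE 2.32, adjusted p = 0.0159) was lost in the same way.

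The promoters of these genes are shown because their RNA moved together while no H3K4me1 peak of EBF-/- cells lay near them. Each is the 250 bases before the RefSeq gene start in build GRCm38.p6, 5' to 3' on the gene's strand. Capitals mark matches on either strand to the E-box CANNTG, to CCCNNGGG, a core of EBF1 sites, and to GTAAACA, bound by FOXO1. Matches could overlap. The positions are chr16:16863986-16864235 (minus strand) for Igll1, chr16:16869256-16869505 (minus strand) for Vpreb1 and chr9:51213440-51213689 (plus strand) for Pou2af1.
Igll1: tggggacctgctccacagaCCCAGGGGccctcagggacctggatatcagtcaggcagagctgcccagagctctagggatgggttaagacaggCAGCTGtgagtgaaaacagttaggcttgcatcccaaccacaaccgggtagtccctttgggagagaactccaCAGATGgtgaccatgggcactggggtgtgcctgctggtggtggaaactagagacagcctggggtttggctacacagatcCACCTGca
Vpreb1: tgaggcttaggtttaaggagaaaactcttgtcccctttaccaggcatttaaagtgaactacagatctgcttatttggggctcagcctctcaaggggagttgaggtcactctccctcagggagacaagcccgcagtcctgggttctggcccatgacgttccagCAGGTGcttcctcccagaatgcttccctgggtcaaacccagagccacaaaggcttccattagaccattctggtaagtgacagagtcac
Pou2af1: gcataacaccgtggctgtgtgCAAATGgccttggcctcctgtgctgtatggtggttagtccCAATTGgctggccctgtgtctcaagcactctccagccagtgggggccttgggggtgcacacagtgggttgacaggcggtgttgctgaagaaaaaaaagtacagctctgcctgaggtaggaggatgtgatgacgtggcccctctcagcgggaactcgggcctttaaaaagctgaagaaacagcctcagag
The Igll1 window held 3 E-boxes and 1 CCCNNGGG match, which starts 231 bases before the gene. The Vpreb1 window held 1 E-box and the Pou2af1 window 2, and neither held CCCNNGGG. No window held GTAAACA. Over all 32851 promoters of the same length, 66.2% held an E-box, 11.8% held CCCNNGGG and 3.17% held GTAAACA.

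Other genes of the receptor followed the same order with unequal peaks. Cd79b, a signalling chain of the receptor, had 4 RAG1-/- only peaks and no EBF-/- peak, with signals of 7.63 and 7.17 against 17.30 and 16.77 (log2 change 9.67, adjusted p = 0.00212). Vpreb3 had 4 RAG1-/- and 2 EBF-/- peaks, both shared. Syk, a kinase below the receptor, was higher in RAG1-/- cells by 0.83 on the log2 scale without a peak in either list, a call lost without EBF-/- replicate 1. Among 13 B cell surface genes there were 43 RAG1-/- and 12 EBF-/- peaks, or 3.31 and 0.923 per gene beside 2.04 and 0.682 over all genes. The 9 housekeeping genes with a position had 3.33 and 0.889 per gene, and all tested genes with a position 2.57 and 0.830. With lists of equal size the housekeeping genes had 7 RAG1-/- and 8 EBF-/- peaks, and the surface genes 25 and 12. In RNA 9 of the 13 were higher and 2 lower, where 21.4% and 22.9% of all genes tested were. Without EBF-/- replicate 1 or 2, 4 and 5 of them were called higher. Ms4a1, which encodes CD20, had 1 peak, chr19:11311049-11312048 (score 71), 6.40 kb downstream of its probe, in RAG1-/- cells and overlapping E2A and H3K4me2. Its signals were 2.93 and 2.94 in EBF-/- samples, not well above background, and 11.99 and 11.47 in RAG1-/- samples, at least 64.0-fold higher (adjusted p = 0.00246).

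The genes of V(D)J recombination, the joining of antigen receptor segments, had the fewest EBF-/- peaks per gene of the 15 lists. Near 11 of them lay 26 RAG1-/- peaks and 1 EBF-/- peak, which was shared and lay near Hmgb2. More RAG1-/- than EBF-/- peaks lay near 10 of the 11, beside 12647 of 20250 genes in all. With lists of equal size there were 16 RAG1-/- peaks against that 1, beside 12229 against 13818 over all genes. Rag1 and Rag2 are neighbours and had the same 5 RAG1-/- peaks, so the list counts these peaks for both genes. They included chr2:101399969-101400968 (score 112, rank 42), which overlapped E2A of RAG1-/- cells, and chr2:101450295-101451294 (score 61), 5.41 kb upstream of the Rag1 probe, which overlapped E2A and H3K4me3 of RAG1-/- cells and H3K4me2 of EBF-/- cells. In RNA, 6 of 11 tested genes were higher (54.5%, beside 21.4% of all genes) and none lower (beside 22.9%). Without either EBF-/- replicate, 4 were called higher. The call for Rag1 (adjusted p = 0.0278) was lost without any 1 of the 4 EBF-/- and RAG1-/- samples and without the dye term.

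Dntt, which adds bases at the joints, had 3 RAG1-/- peaks and no EBF-/- peak. Its signals were 12.60 and 12.51 in EBF-/- and 15.12 and 16.46 in RAG1-/- samples, well above background in all 4 (log2 change 3.24, SE 0.31, adjusted p = 0.00247). Lig4, the ligase of the joining reaction, had 1 RAG1-/- peak, chr8:9976500-9977499 (score 87), 5.50 kb upstream of its probe and overlapping CTCF. Its signals of 8.22 and 7.85 against 12.21 and 12.20 did not overlap (log2 change 4.17, SE 0.15, adjusted p = 0.000432). Atm, a kinase that responds to DNA breaks, had no peak in either list and signals of 9.88 and 9.68 against 9.73 and 9.67.

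Near 12 genes of IL-7, FLT3 and KIT signalling lay 38 RAG1-/- and 10 EBF-/- peaks. A peak could count for several genes, and Stat5a and Stat5b had 4 RAG1-/- peaks each. The 12 genes had 3.17 and 0.833 per gene, beside 2.04 and 0.682 over all genes and 3.33 and 0.889 over 9 housekeeping genes. With lists of equal size the 12 genes had 15 RAG1-/- and 10 EBF-/- peaks, beside 12229 and 13818 over all genes. In RNA none was higher in RAG1-/- cells and 6 of 12 were lower, beside 22.9% of all genes tested. Only 3 were called lower without EBF-/- replicate 2, beside 1339 of all 12468 genes. Il7r had 3 RAG1-/- only peaks and 1 EBF-/- only peak. The latter, chr15:9436653-9437652 (score 26), overlapped E2A, FOXO1 and H3K4me2 of RAG1-/- cells. Its RNA was alike in all samples, with signals of 13.21 and 13.13 against 13.42 and 12.95 (log2 change 0.02, SE 0.16, adjusted p = 0.934). Kit, the receptor for SCF, had 3 EBF-/- only peaks and no RAG1-/- peak. Its signals were 12.57 and 12.60 in EBF-/- and 7.05 and 9.71 in RAG1-/- samples (log2 change -4.22, SE 0.74, adjusted p = 0.0121), and the call was lost without EBF-/- replicate 2. Flt3, the receptor for FLT3 ligand, had no peak near its probes in either list, with signals of 12.50 and 12.86 against 7.30 and 6.92. Bcl2, which protects cells from death, fell by 3.82 on the log2 scale with 7 RAG1-/- peaks and 1 EBF-/- peak near it.

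**Figure D4:**
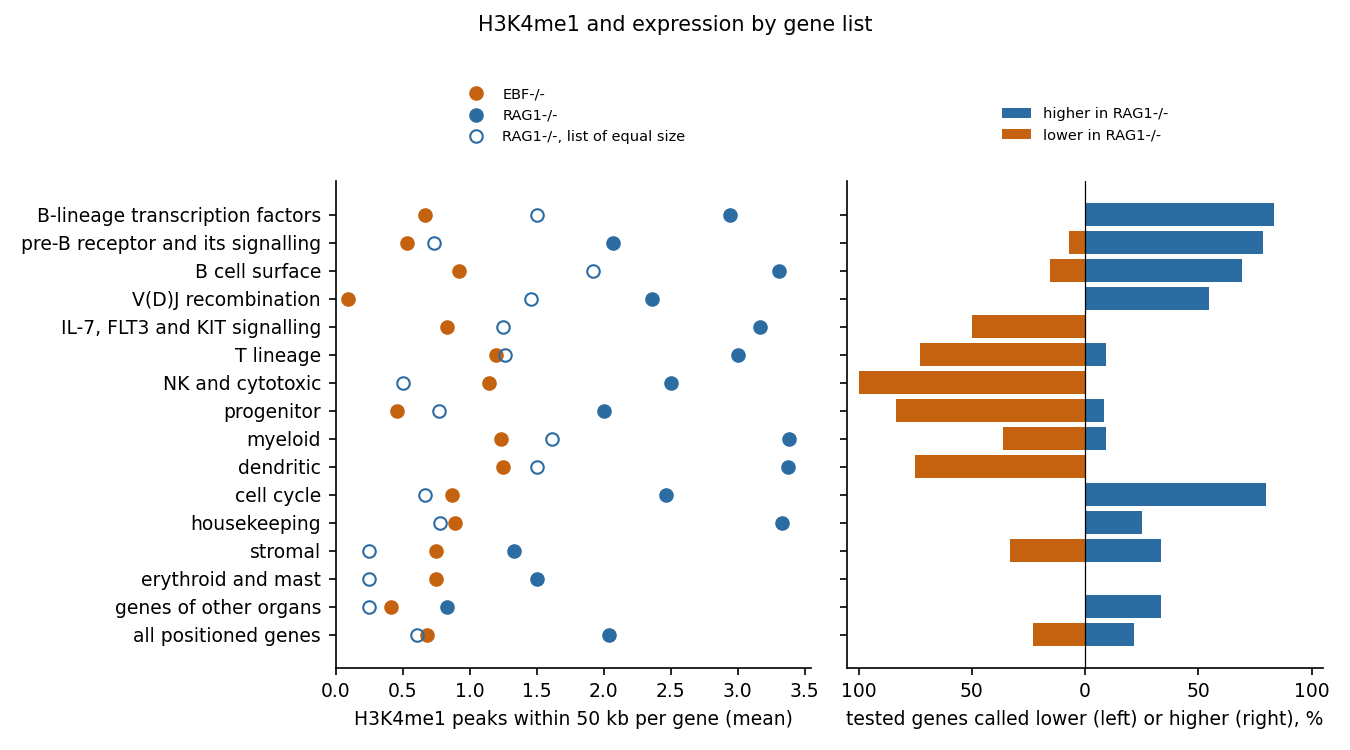
Left, mean number of H3K4me1 peaks within 50 kb of a gene's probes for 15 gene lists and for all positioned genes, in EBF-/- cells, in RAG1-/- cells and with RAG1-/- peaks limited to the number of EBF-/- peaks. Right, percentage of tested genes called lower or higher in RAG1-/- cells. The V(D)J list has 0.0909 EBF-/- peaks per gene, and all 11 tested NK and cytotoxic genes were lower in RAG1-/- cells.

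Genes of other lineages, whose RNA was lower in RAG1-/- cells, had H3K4me1 there too. Near 14 NK and cytotoxic genes lay 35 RAG1-/- and 16 EBF-/- peaks, and 10 of the 16 were shared, beside 5557 of 13818 over all genes. With lists of equal size the order turned, with 7 RAG1-/- against 16 EBF-/- peaks, beside 12229 against 13818 over all genes. All 11 of these genes that were tested fell, beside 22.9% of all genes tested. The 6 that were well above background in all samples of both groups ranged from Prf1, the perforin gene, which fell by 1.45 on the log2 scale, to Klrd1, which fell by 4.93. The log2 of the summed signal of all 11 was 16.78 and 16.83 in EBF-/- and 11.83 and 12.48 in RAG1-/- samples, and 3 of the 11 were not well above background in either RAG1-/- sample. Of the 11, 8 were called lower without EBF-/- replicate 1 or 2.

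Tyrobp, an adaptor of NK receptors, had 2 EBF-/- peaks, both shared, and 3 RAG1-/- peaks. One shared pair had rank 84 in EBF-/- cells (chr7:30162234-30163233, score 45) and rank 14729 in RAG1-/- cells (chr7:30162078-30163077, score 26), and it overlapped H3K4me2 in both. Tyrobp signals were 15.67 and 15.72 in EBF-/- and 10.69 and 10.96 in RAG1-/- samples (log2 change -4.87, SE 0.11, adjusted p = 0.000369). Klrd1, an NK receptor chain, had a shared pair with H3K4me2 in both kinds of cell, with rank 3146 of 7544 in EBF-/- and 3221 of 23054 in RAG1-/- cells. Its signals were 13.28 and 13.28 against 8.66 and 8.03. Il18r1, a receptor for IL-18, had 2 EBF-/- and 3 RAG1-/- peaks with 1 shared, and signals of 13.36 and 13.18 against 3.47 and 3.35, the latter not well above background (at least 374-fold lower, adjusted p = 0.00035). Il2rb, a chain of the receptors for IL-2 and IL-15, had 5 RAG1-/- peaks and no EBF-/- peak, and its signals were 10.97 and 11.22 in EBF-/- but 4.40 and 6.28 in RAG1-/- samples. Its peaks were thus in the cells with less of its RNA.

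T lineage genes had 45 RAG1-/- and 18 EBF-/- peaks near 15 genes, beside 41254 and 13818 over all genes. Cd3d, Cd3e and Cd3g had 2 EBF-/- peaks each, and a peak could count for several genes. With lists of equal size the 15 genes had 19 and 18, beside 12229 and 13818. Of 11 tested, 8 were lower and 1, Lat, was higher in RAG1-/- cells, where 22.9% and 21.4% of all genes were. Gata3, which drives early T cell development, had 1 EBF-/- only peak, chr2:9806636-9807635 (score 23), with H3K4me2 in both kinds of cell, and no RAG1-/- peak. Its signals were 10.44 and 10.29 against 3.38 and 3.71 (at least 49.7-fold lower, adjusted p = 0.000426). Tcf7 and Notch1, also T lineage regulators, had 3 RAG1-/- only peaks each and no EBF-/- peak. Their RNA fell by 2.93 and 2.48 on the log2 scale, and the Tcf7 call was lost without either EBF-/- sample. The log2 of the summed T lineage signal was 15.47 and 15.45 in EBF-/- and 14.14 and 14.18 in RAG1-/- samples.

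Most progenitor genes had less RNA in RAG1-/- cells. Of 12 tested, 10 were lower and 1, Erg, was higher, beside 22.9% and 21.4% of all genes, and 7 were lower without EBF-/- replicate 1. Near 13 genes lay 6 EBF-/- and 26 RAG1-/- peaks, or 0.462 and 2 per gene beside 0.682 and 2.04 over all genes. With lists of equal size there were 6 EBF-/- and 10 RAG1-/- peaks, beside 13818 and 12229 over all genes. Hoxa7, Hoxa9 and Hoxa10, regulators of early progenitors, had no H3K4me1 peak in either list. Hoxa9 signals were 13.29 and 13.37 in EBF-/- and 8.26 and 8.29 in RAG1-/- samples (log2 change -5.06, SE 0.11, adjusted p = 0.000369). Meis1, a partner of these factors, had 3 EBF-/- peaks, of which 2 were shared. One of its pairs had rank 112 in EBF-/- cells (chr11:18823845-18824844, score 43) and rank 16038 in RAG1-/- cells (chr11:18824510-18825509, score 24). Meis1 signals were 9.51 and 9.58 against 6.71 and 7.64 (log2 change -2.38, SE 0.29, adjusted p = 0.00474).

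**Figure D5:**
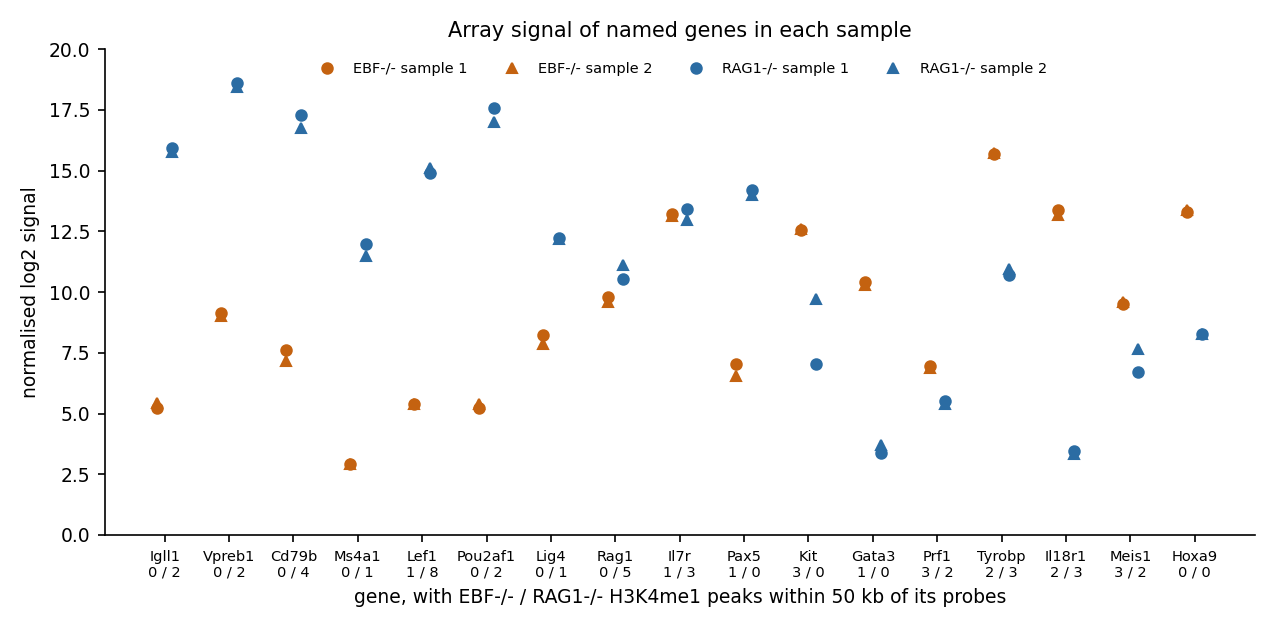
Normalised log2 array signal of 17 genes in each of the 2 EBF-/- and 2 RAG1-/- samples, with the number of H3K4me1 peaks within 50 kb of the gene's probes in EBF-/- and RAG1-/- cells under each name. The B lineage genes from Igll1 to Rag1 are higher in RAG1-/- samples, as is Pax5. Il7r is alike at 13.21, 13.13, 13.42 and 12.95, and the genes from Kit to Hoxa9 are higher in EBF-/- samples. Levels of different genes come from different probes and are not comparable.

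Markers of other cells were also measured, and their part in the peak differences was not tested. Near 12 stromal genes lay 9 EBF-/- and 16 RAG1-/- peaks, beside 13818 and 41254 over all genes. With lists of equal size there were 9 EBF-/- and 3 RAG1-/- peaks, beside 13818 and 12229. Of the 12 genes, 3 were well enough measured to test. Col1a1, Col3a1, Dcn, Cxcl12, Vcam1, Postn, Sparc, Lum and Fbn1 did not pass the filter on dim probes. The 3 did not move together. Pdgfrb, a growth factor receptor gene, was lower in RAG1-/- cells (12.96 and 12.75 against 7.70 and 7.60), Fn1, which encodes fibronectin, was higher (3.48 and 3.58, not well above background, against 7.48 and 5.77), and Col1a2, a collagen gene, was not called (6.30 and 7.37 against 6.93 and 7.69). The log2 of their summed signal, 12.98 and 12.78 in EBF-/- and 8.99 and 8.83 in RAG1-/- samples, was mostly that of Pdgfrb. The Fn1 call was lost without any 1 of the 4 samples and with the replicate number as a block. Among 8 dendritic genes, all tested, 6 were lower and none higher in RAG1-/- cells, beside 22.9% and 21.4% of all genes. They had 27 RAG1-/- and 10 EBF-/- peaks, or 3.38 and 1.25 per gene. Over all genes there were 2.04 and 0.682 per gene, and over 9 housekeeping genes 3.33 and 0.889. The dendritic genes had 12 RAG1-/- and 10 EBF-/- peaks with lists of equal size, beside 12229 and 13818 over all genes. Near 13 myeloid genes lay 44 RAG1-/- and 16 EBF-/- peaks, beside 41254 and 13818 over all genes. Their peaks numbered 21 and 16 with lists of equal size, beside 12229 and 13818. Of 11 tested myeloid genes 4 were lower (36.4%) and 1 higher, beside 22.9% and 21.4% of all genes. The change was negative for 7 of these 11 with all samples and for 8 without RAG1-/- replicate 2. The log2 of the summed myeloid signal was 15.65 and 15.64 for EBF-/- against 13.47 and 15.96 for RAG1-/- samples 1 and 2. RAG1-/- sample 2 was far above sample 1 for Mpo (9.15 and 14.59), which encodes myeloperoxidase, for Ctsg (5.86 and 12.70), which encodes cathepsin G, and for the mast cell gene Cpa3 (4.95 and 10.53). Over all genes, 2799 were higher and 3198 lower without that sample. Of 15 cell cycle genes 12 were higher in RAG1-/- cells and none lower, beside 21.4% and 22.9% of all genes. They had 37 RAG1-/- and 13 EBF-/- peaks, and 10 against 13 with lists of equal size, beside 41254 against 13818 and 12229 against 13818 over all genes. Without EBF-/- replicate 1 or 2, 7 and 6 of them were called higher.

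The genes with the most unshared peaks were chosen by peak number, and their RNA was not used. The largest number of RAG1-/- only peaks, 11, lay near the widely spaced probes of Pakap, and its RNA was higher in RAG1-/- cells (3.32 and 4.06, not well above background, against 10.71 and 11.20, at least 37.4-fold higher). Ahnak, a gene for a very large scaffold protein, had 10 RAG1-/- peaks and no EBF-/- peak but far lower RNA in RAG1-/- samples, with 12.36 and 12.31 against 8.07 and 8.35 (log2 change -4.13, SE 0.11, adjusted p = 0.000369). Mgat5, a glycosyltransferase gene, had 9 such peaks, 1 of them scoring 114 (rank 34), and lower RNA (13.03 and 12.90 against 11.07 and 11.05). Stx8, which encodes a syntaxin, had 10 and no clear change (12.54 and 12.64 against 12.31 and 12.54, adjusted p = 0.344). Of the 10 tested among all 12 genes with 9 or more such peaks, 1 was higher and 3 were lower, beside 21.4% and 22.9% of all genes.

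Of the 44 genes with 4 or more EBF-/- only peaks, 31 were tested, and 3 were higher and 17 lower in RAG1-/- cells, beside 21.4% and 22.9% of all genes. Peaks near 1 gene share its neighbourhood. The genes with values here are from the first 10, and 5 of those 10 came from a tie of 39 genes with 4 such peaks, broken by fewest shared peaks and then by name. Wfdc18, a gene for a small secreted protein, had 5 EBF-/- only peaks and 1 shared peak, with signals of 8.85 and 8.75 in EBF-/- and 5.64 and 6.59 in RAG1-/- samples (log2 change -2.70, SE 0.30, adjusted p = 0.00349). B3galnt1, another glycosyltransferase gene, had 4 EBF-/- peaks and no RAG1-/- peak, with signals of 6.91 and 6.47 against 3.12 and 3.62, the latter not well above background (at least 3.91-fold lower). Its call (adjusted p = 0.0122) was lost without any 1 of the 4 samples of these groups and with the replicate number as a block. Nrp1, a receptor for semaphorins, had 5 EBF-/- peaks against 1, and its signals of 4.96 and 6.17 against 3.49 and 4.63 did not pass the test (adjusted p = 0.126).

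Read from the RNA, the 10 genes with the largest rise had more RAG1-/- than EBF-/- peaks in 9 cases, beside 12647 of all 20250 genes. The order by fitted change rests in part on signals near background. Counting any probe of a gene, 6 of the 10 were not well above background in either EBF-/- sample and the other 4 were in only 1. The 10 genes were Vpreb3, Pou2af1, Cplx2, Grb7, Igll1, Gldc, Alpl, Arl5c, Enpep and Lrrn3, and Gldc, a glycine-degrading enzyme, had no peak of either list within 50 kb. The fitted Cplx2 probe had EBF-/- signals of 3.11 and 4.09, below the lowest well-measured signals of these samples, 6.25 and 5.21. Enpep, the surface peptidase BP-1 of pre-B cells, had a shared pair 0.052 and 0.170 kb from its probe and 1 further RAG1-/- peak, while its RNA was at least 169-fold higher in RAG1-/- cells (2.94 and 2.94 against 13.48 and 12.78, adjusted p = 0.00214). The 10 genes with the largest fall were 5830411N06Rik, Il18r1, Cd163l1, Ccr9, Esm1, Hoxa10, Ednra, Ptprf, Txk and Jchain. Of these 10, 6 were not well above background in either RAG1-/- sample. More EBF-/- peaks lay near 5830411N06Rik, Cd163l1 and Esm1, as near 1267 of all genes, and the first 2 share their only peak (chr7:140104381-140105380, score 16), while 5 had more RAG1-/- peaks, Ednra had 1 of each and Hoxa10 had none. Esm1 had 5 EBF-/- peaks, 4 of them unshared, and 2 RAG1-/- peaks, with signals of 12.36 and 12.07 against 3.68 and 3.76, the latter not well above background (at least 179.7-fold lower). Over all genes called higher there were 2.47 RAG1-/- and 0.728 EBF-/- peaks per gene, over those called lower 2.75 and 0.935, and over those not called 2.53 and 0.826.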

How the data were processed

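ChIP-seq peaks and array RNA of cultured mouse cells were used. Peaks were called by the authors with HOMER on build mm8, per the submitters' processing notes; version, threshold and aligner are not given in the sources used here. Each deposited peak score is the authors' value. Array intensity values were extracted, background-subtracted and dye-normalized by the authors, and the file headers name Agilent Feature Extraction 9.5.3.1. Library depth is unknown.

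Here, overlaps were counted in Python 3.11.15 (numpy 2.4.6, pandas 2.3.3), with exact binomial 95% intervals (scipy 1.17.1). Each sample's own-dye processed signal was taken to log2, quantile-normalized over 6 channels, averaged per probe, reduced to the brightest kept probe per gene and fitted over all groups in limma 3.58.1 (under R 4.3.3), with terms for group and dye and array as a random block; Benjamini-Hochberg adjusted p under 0.05 was called. A bound ("at least") is given where a group was not well above background: the bright group's mean over the higher of the dim group's own signal and its lowest well-measured signal. A gene counted as well above background in a sample where any of its probes was. Of 41174 probes, 40794 had an mm8 position, and 22133 passed the filter on dim probes. Tested on simulated data of 12468 genes, the fit called 21 of 67, 36 of 67 and 57 of 66 genes changed by 1, 2 and 4 on the log2 scale, with 3 false calls.

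The peaks and gene lists were chosen with earlier results of these data known. Named genes are those of the 15 lists, those nearest the 12 top peaks of each class, the 10 with most unshared peaks (ties broken by fewest shared peaks, then by name) and the 10 with the largest expression change in each direction. Promoters of 8 genes were looked up in RefSeq (GRCm38.p6) and 6 had 1 entry. Peak sequences were not used here.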

Additional observations from a re-analysis of the deposited data

How the results depend on the processing

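Requiring 50% of each interval, the shared part was 29.3% of the EBF-/- and 9.59% of the RAG1-/- list. Allowing gaps of 1 kb, 2.5 kb and 5 kb (2.5 and 5 kb chosen after seeing the data, as were leaving out X and Y and normexp without loess), it was 41.2% and 13.5%, 43.5% and 14.3%, and 46.6% and 15.8%. With the upper 50% of each list by score it was 24.7% and 8.09%, and with lists of equal size 12.6% of both. Genes with a RAG1-/- peak were 55.3% within 20 kb, 83.2% within 100 kb and 39.3% with equal lists, and with an EBF-/- peak 24.9% and 61.5%. With a 1 kb gap or the upper 50% by score, H3K4me2 was at 61.7% and 60.7% of RAG1-/- only and 67.9% and 76.8% of EBF-/- only peaks of its own cells, and E2A of RAG1-/- cells at 21.5% and 21.2% of RAG1-/- only and 7.55% and 6.84% of EBF-/- only peaks. Genes with RAG1-/- peaks alone were higher in 22.0% of cases at 20 kb and 26.7% at 100 kb, and genes with no peak in 23.4% and 19.7%. The cause of these moves was not tested.

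Leaving out 1 array sample gave 1063 to 2799 genes higher and 1239 to 3198 lower in RAG1-/- cells, 10.2 to 25.5% of genes with RAG1-/- peaks alone higher, and 11.5 to 29.0% of genes with peaks of both lists lower. The lowest values came without EBF-/- replicate 1. Of 132 named genes called, leaving out EBF-/- replicate 1 lost 49 calls, EBF-/- replicate 2 lost 39 and RAG1-/- replicate 1 lost 15, and none changed direction. With the replicate number as a block 3351 genes were higher and 3628 lower; the numbers share no more than a number (correlation of deviations 0.0116), and 4 named calls were lost. The planned normexp with loess was not run, since it needs channels with no labelled RNA here. One ChIP library per mark and array pairs of unstated origin limit all values.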
